A study of Mus musculus with 8 samples.

Results

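The signalling lymphocytic activation molecule (SLAM) receptors and their adaptor SAP were described across 4 kinds of mouse CD4 helper T cell: 6 receptor genes (Slamf1, Slamf6, Slamf7, Cd84, Ly9 and Cd48) and the adaptor gene Sh2d1a. They were taken by symbol from an Affymetrix mouse array of 45101 probe sets, using only probe sets annotated to that symbol alone, and make 7 of the 18193 genes so annotated. Where a gene had several such probe sets, the one with the highest mean over the 8 arrays stood for it and the rest served as a check. The 7 genes had 12 probe sets, and all 7 passed the filter on low values.

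The study held 8 arrays, 2 for each of the groups Tfh, Th1, Th2 and Th17. T follicular helper (Tfh) cells were spleen cells positive for CD4 and for the chemokine receptor CXCR5, sorted by flow cytometry from C57BL/6 mice at day 7 after immunization with the protein antigen KLH and then given anti-CD3 for 4 h. Their age was not given in the sources used here, and the group is defined by the CXCR5 gate rather than by function. The other cells came from OT-II mice aged 6 to 8 weeks on the C57BL/6 background, which carry a transgenic T cell receptor: naive CD4 cells from spleen and lymph node were stimulated for 5 days with OT-II peptide and antigen-presenting cells (APC). Th1 cultures received 10 ng/ml of IL-12 with anti-IL-4, Th2 cultures 10 ng/ml of IL-4 with anti-IFNg, and Th17 cultures 20 ng/ml of IL-6 with TGFb, anti-IL-4 and anti-IFNg. Cell type, source, antigen and handling differ together between Tfh and the cultured cells and cannot be told apart. Whether the arrays of a group stand for separate animals or cultures is not stated in the labels, so p-values rest on sample spread that may be only technical.

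SLAM receptors are surface glycoproteins of the immunoglobulin superfamily found on blood cells, and most of them bind the same receptor on a neighbouring cell. The tails of many of these receptors, though not of all, carry tyrosine switch motifs that bind SAP when phosphorylated. SAP is a small SH2-domain adaptor that brings in the kinase Fyn, and without it such motifs can bind inhibitory phosphatases. Which of the receptors described here bind SAP was not tested. In T cells SAP is known for stable contact with B cells and for the germinal centre response, and loss of SAP in humans causes X-linked lymphoproliferative disease. Among the receptors CD48 has a lipid anchor and no signalling tail.

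Values are the deposited log2 levels, and a difference of 1 is a doubling. Calls required a limma p under 0.05 after Benjamini-Hochberg adjustment over the 11178 tested genes, and a difference of at least 1 in size. Tfh arrays had another distribution of values, with 75th percentiles of 8.46 and 8.47, against 6.97 to 7.06 in the cultured arrays. For the median tested gene Tfh minus Th1 was 0.85, Tfh minus Th2 0.84, Tfh minus Th17 0.83 and Tfh minus their mean 0.84. Calls were therefore repeated after shifting arrays to a common median over all probe sets, after quantile normalization, and after shifting them to a common median over the tested genes. With the cultured mean as comparison, 43.7% of tested genes were called higher and 6.66% lower as deposited, against 15.8% and 22.3% after quantile normalization. The shift to the tested genes' median gave 14.8% and 28.9%. The 2 Tfh arrays were also closer to each other than those of any other group, with 11 tested genes differing by more than 1, against 696 to 1435 in the cultured groups.

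The sort marker and the defining cytokines were highest where the labels put them, and the lineage factors of Th1 and Th2 were so in part. Cxcr5 had levels of 11.25 and 11.20 in Tfh arrays and 3.34 to 8.12 in cultured arrays. Ifng, Il4 and Il17a were highest in the Th1 arrays (15.39 and 15.07), the Th2 arrays (15.20 and 15.57) and the Th17 arrays (14.35 and 13.93). On the other arrays Ifng read 10.72 to 14.12, with 14.12 and 12.09 in Th2. Il4 read 3.46 to 10.60 outside Th2, with 10.60 on Th1 replicate 2, and Il17a 8.67 to 10.98 outside Th17. Between cultured types limma called Il4 and Il17a only for Th2 against Th17, and Ifng in no pair. Tbx21, the Th1 factor, read 10.66 and 10.59 in Tfh and 10.89 and 9.43 in Th1, and Gata3, the Th2 factor, read 10.67 and 10.52 in Tfh and 10.44 and 11.13 in Th2, so Tfh overlapped both types. Levels of other cells' markers differed between groups too. Each summed level given here and below is the log2 of the sum of the unlogged levels, so the highest markers weigh most. Summed over 6 neutrophil markers, the level was 16.13 and 16.07 in Tfh arrays against 5.09 to 11.84 in cultured arrays. Over 6 B cell markers it was 9.91 and 9.93 against 5.88 to 9.73. The B cell factor Pax5 lay under the filter threshold of 3.13 on all arrays, and Blk lay under it on both Tfh arrays. The B cell markers Cd79a, Cd79b, Ms4a1 and Cd22 read 7.06 to 8.38 in Tfh arrays and 3.42 to 8.95 in cultured arrays. Foxp3, the factor of regulatory T cells, stood at 10.79 and 10.73 in Tfh arrays and 2.36 to 2.40 in cultured arrays. Of the 3 regulatory T cell markers listed, 2 were called higher and 1 lower in Tfh than the cultured mean, all in 4 scalings. Of all tested genes 12.7% and 6.63% were so called. Their summed level was 13.34 and 13.29 in Tfh arrays against 11.03 to 13.06 in cultured arrays. Th2 replicate 1 had the highest summed level of platelet markers (12.19, against 5.14 to 9.32 on the other arrays) and of mast cell and basophil markers (10.42, against 4.44 to 8.62). The arrays measured bulk RNA, so fewer cells of a type and less RNA per cell cannot be told apart.

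Sh2d1a, which encodes SAP, was higher in Tfh cells than in each cultured type, and among the cultured types its arrays were lowest in Th2. It read 12.85 and 12.79 in Tfh, 9.55 and 11.16 in Th1, 8.09 and 8.05 in Th2, and 9.32 and 9.79 in Th17. Both Tfh arrays were above all 6 cultured arrays, and both Th2 arrays were below the rest. Tfh exceeded Th2 by 4.75 ± 0.50 (SE, n = 2 arrays each), a 27.0-fold difference (limma, adjusted p = 0.000527), and exceeded Th17 by 3.27 ± 0.50 (adjusted p = 0.00239). The difference from Th1 was 2.47 ± 0.50, a 5.53-fold difference with adjusted p = 0.00684, which was 1.66 without Th1 replicate 1 and 3.28 without Th1 replicate 2. Relative to the median gene these differences were 3.91, 2.44 and 1.62. The calls against Th2 and Th17 held in all 4 scalings, but that against Th1 was lost in the shift to the tested genes' median (1.26, adjusted p = 0.0765). Among all tested genes the differences stood at percentiles 98.5, 94.9 and 87.0 for Th2, Th17 and Th1.

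Slamf6, which encodes a receptor of T, B and NK cells also called Ly108, was higher in Tfh than in all 3 cultured types. It read 11.55 and 11.48 in Tfh, 7.67 and 9.09 in Th1, 8.94 and 8.82 in Th2, and 7.70 and 9.43 in Th17. Both Tfh arrays were above every cultured array, while the ranges of the cultured types overlapped. Tfh was 3.14 ± 0.67 above Th1 (SE, n = 2 arrays each), an 8.79-fold difference (limma, adjusted p = 0.00795), which was 2.43 on the log2 scale without Th1 replicate 1 and 3.85 without Th1 replicate 2. It was 2.64 ± 0.67 above Th2 (adjusted p = 0.0151) and 2.95 ± 0.67 above Th17 (adjusted p = 0.0102), with the Th17 difference at 2.08 without Th17 replicate 1 and 3.81 without Th17 replicate 2. Against Th1 the call held in all 4 scalings, with a smallest difference of 1.93 (adjusted p = 0.0485). The call against Th2 was lost in quantile normalization (1.79, adjusted p = 0.0560) and in the shift to the tested genes' median (1.43, adjusted p = 0.113), and also without any 1 of the Tfh or Th2 arrays (adjusted p of 0.0572 to 0.0702). That against Th17 was lost in the same shift (1.79, adjusted p = 0.0640), without Tfh replicate 1 (adjusted p = 0.0546) and without Tfh replicate 2 (adjusted p = 0.0511).

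Ly9, a receptor that binds itself on adjacent lymphocytes, was called higher in Tfh by smaller amounts, which relative to the median gene were all under 1. It read 9.47 and 9.34 in Tfh, 8.07 and 8.39 in Th1, 8.10 and 8.05 in Th2, and 7.29 and 8.09 in Th17. The Tfh arrays were above all others. Tfh was 1.18 ± 0.29 above Th1 (adjusted p = 0.0141), 1.33 ± 0.29 above Th2 (adjusted p = 0.00864) and 1.72 ± 0.29 above Th17 (adjusted p = 0.00341), each SE from the limma fit with n = 2 arrays per group. Relative to the median gene the differences were 0.33, 0.49 and 0.89. No Ly9 call held in all 4 scalings: after quantile normalization the differences were -0.08, 0.08 and 0.48, with adjusted p of 0.832, 0.831 and 0.204. The call against Th1 was also lost without Tfh replicate 1, Tfh replicate 2 or Th1 replicate 1 (adjusted p of 0.0591 to 0.0800), and that against Th2 without Tfh replicate 1 (adjusted p = 0.0565).

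Cd84, another receptor that binds itself and is found on T cells, B cells, platelets and myeloid cells, read 10.86 and 10.91 in Tfh, 9.40 and 9.39 in Th1, 10.12 and 9.82 in Th2, and 8.44 and 10.22 in Th17. The Tfh arrays were again above all others, and the Th17 arrays were 1.78 apart and spanned the range of the cultured arrays. Tfh was called higher than Th17 by 1.55 ± 0.54 (limma, adjusted p = 0.0464), a call with adjusted p between 0.0720 and 0.151 without any 1 array of Tfh, Th1 or Th2 and a difference of 0.66 without Th17 replicate 1 and 2.44 without Th17 replicate 2. The differences from Th1, 1.49 ± 0.54 (adjusted p = 0.0523), and from Th2, 0.91 ± 0.54 (adjusted p = 0.183), were not called. Against Th1 it was called without either Th17 array (adjusted p = 0.000857 without replicate 1 and 0.000892 without replicate 2). Relative to the median gene the differences were 0.64 from Th1, 0.08 from Th2 and 0.73 from Th17, and the call against Th17 was lost in each of the other scalings. The difference from the cultured mean, 1.32 ± 0.44 (adjusted p = 0.0369), was also lost in each of the other scalings and without any 1 array of Tfh, Th1 or Th2 (adjusted p of 0.0618 to 0.153). B cell, platelet and myeloid markers also differed between these arrays, and not in the same direction. Summed levels over 8 myeloid and dendritic markers were 11.62 and 11.55 in Tfh and 5.53 to 10.997 in the cultured arrays. The B cell sums were likewise higher in Tfh, as given above. Over 4 platelet markers the sums were lower in Tfh, at 5.41 and 5.14 against 6.19 to 12.19. The part of these markers in the levels of Cd84, Slamf6 and Ly9 was not tested.

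**Figure D1:**
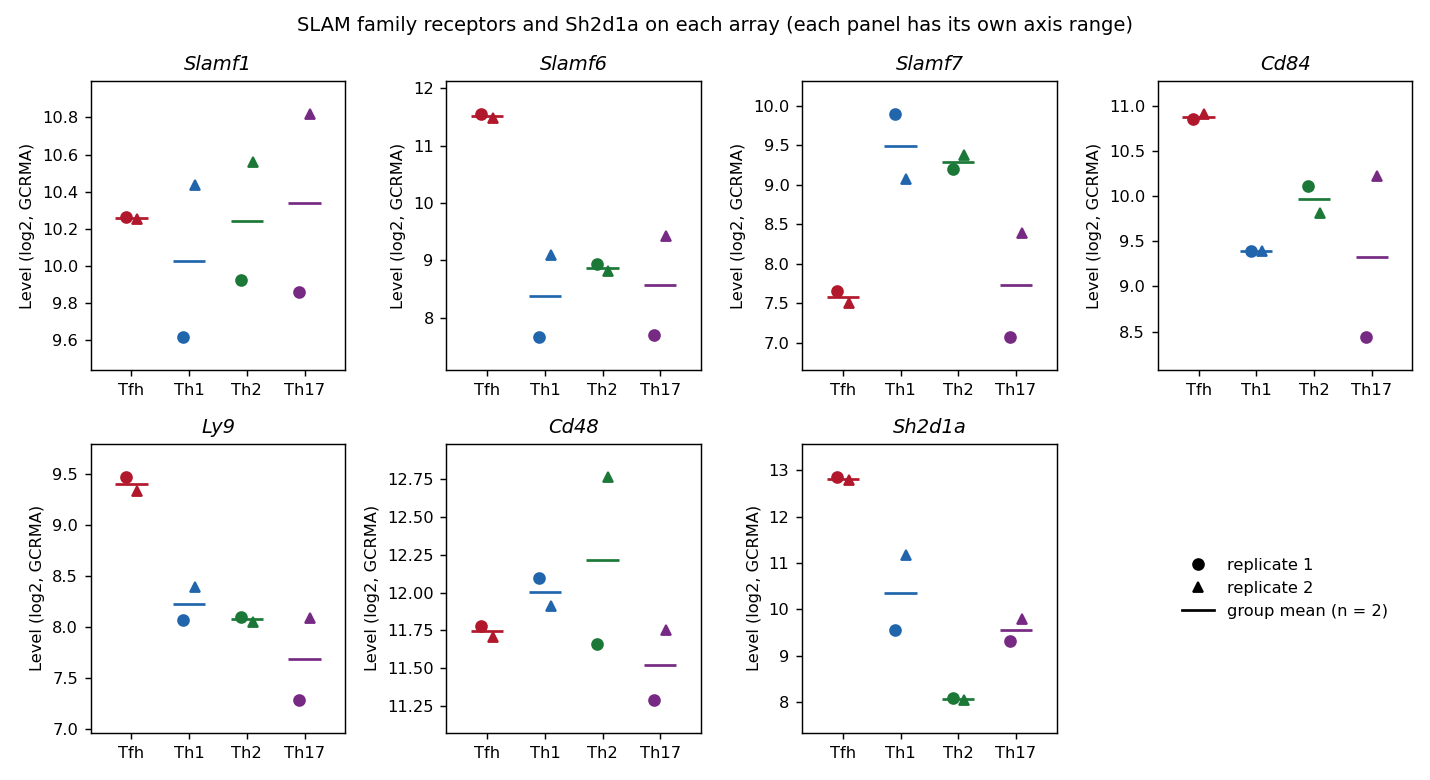
Level on each array (log2, GCRMA) of the main probe set of the 7 genes. Each point is 1 array and each bar the mean of the 2 arrays of a group, with Tfh at the left of the cultured types. Sh2d1a, Slamf6, Cd84 and Ly9 have both Tfh arrays above all 6 cultured arrays, and Slamf7 has the Tfh arrays below those of Th1 and Th2.

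Slamf7, whose receptor is also called CRACC and is known on NK cells, cytotoxic T cells and plasma cells, ran in the other direction. It read 7.66 and 7.50 in Tfh, 9.89 and 9.08 in Th1, 9.21 and 9.38 in Th2, and 7.07 and 8.39 in Th17. The Tfh arrays were below all Th1 and Th2 arrays and lay within the Th17 range. The differences, Tfh minus Th1 and Tfh minus Th2, were -1.91 ± 0.48 (limma, adjusted p = 0.0147) and -1.71 ± 0.48 (adjusted p = 0.0215), and stood at percentiles 3.28 and 4.80 among the tested genes. Both held in all 4 scalings, at sizes up to -3.35 and -3.18 after quantile normalization. These scalings all lower Tfh, so a call of lower in Tfh is favoured by them. The call against Th1 was lost without Tfh replicate 1, Tfh replicate 2 or Th1 replicate 1 (adjusted p of 0.0604 to 0.0741), and the call against Th2 without any 1 of the Tfh or Th2 arrays (adjusted p of 0.0694 to 0.0959). Against Th17 the difference was -0.15 ± 0.48 (adjusted p = 0.794), but after quantile normalization it was called lower in Tfh (-1.65, adjusted p = 0.0290). The difference from the cultured mean was -1.26 ± 0.39 (adjusted p = 0.0286), a call lost without any 1 of the Tfh or Th2 arrays (adjusted p of 0.0538 to 0.143). Summed over 5 NK and CD8 markers the level was 8.21 and 8.18 in Tfh arrays, against 12.53 and 10.43 in Th1, 8.79 and 7.36 in Th2, and 7.73 and 10.08 in Th17. Ncr1, a defining NK receptor, lay under the filter threshold on all arrays, whereas Klrk1 had 2.62 and 2.60 in Tfh and 2.80 to 11.67 in the cultured arrays. Cd8a ran the other way as deposited, with 4.79 and 4.90 in Tfh and 3.38 to 4.22 in the cultured arrays, a difference of 1.11 that was -0.11 after quantile normalization. Summed over 4 plasma cell markers the level was 12.65 and 12.62 in Tfh arrays and 12.89 to 13.72 in cultured arrays. Among these, Xbp1 was lower in Tfh as deposited (12.31 and 12.26, against 12.88 to 13.64). Jchain was higher (10.1 and 10.2, against 2.14 to 6.33), and in Sdc1 and Prdm1 the Tfh arrays lay within the cultured range. The part of the NK, CD8 and plasma cell markers in the Slamf7 levels was not tested.

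The remaining receptors had no call in any comparison of the deposited values. Slamf1, the founding receptor of the family, read 10.26 and 10.25 in Tfh, 9.62 and 10.43 in Th1, 9.92 and 10.56 in Th2, and 9.86 and 10.82 in Th17. On this main probe set each cultured type thus had 1 array on either side of Tfh. The differences of Tfh from Th1, Th2 and Th17 were 0.23, 0.02 and -0.08 (SE 0.43 each). The 95% interval of the difference from Th1 reached -0.82 and 1.28, which leaves differences of more than 1 possible. Cd48, which encodes the lipid-anchored ligand of CD2 and CD244, read 11.78 and 11.71 in Tfh, 12.10 and 11.91 in Th1, 11.66 and 12.76 in Th2, and 11.29 and 11.75 in Th17. Its differences were -0.26, -0.47 and 0.22 (SE 0.36 each), with adjusted p of 0.554, 0.296 and 0.617. Without Th2 replicate 1 Cd48 was called lower in Tfh than in Th2 (-1.02, adjusted p = 0.0184). Relative to the median gene, which was higher in Tfh, the differences were -0.62 to -0.91 for Slamf1 and -0.61 to -1.31 for Cd48. In the shift to the tested genes' median Cd48 was called lower in Tfh than in Th1 (-1.47, adjusted p = 0.0179) and in Th2 (-1.68, adjusted p = 0.0105), where 28.5% and 29.1% of tested genes were called lower, and both Cd48 (-1.36, adjusted p = 0.00962) and Slamf1 (-1.14, adjusted p = 0.0326) were called lower than the mean of the cultured types. Quantile normalization also called Cd48 lower in Tfh than in Th2 (-1.10, adjusted p = 0.0447).

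Counted over the family, 3 genes were called higher and 1 lower in Tfh than in Th1, where 42.8% of tested genes were called higher and 6.16% lower. Against Th2 the counts were again 3 and 1, beside 42.8% and 6.89% of tested genes. Against Th17 there were 4 higher and 0 lower, beside 41.8% and 6.17%, and the 3 genes without a call there had unadjusted p above 0.05. Against the cultured mean 4 were higher and 1 lower, beside 43.7% and 6.66%. A share of 3 or 4 of 7 called higher is thus close to the share of all tested genes. In all 4 scalings 1 gene was called higher and 1 lower against Th1 (Slamf6 and Slamf7), beside 12.4% and 6.13% of tested genes. Against Th2 these were Sh2d1a and Slamf7, beside 13% and 6.86%, and against Th17 Sh2d1a alone, beside 11.6%. Against the mean, Slamf6 and Sh2d1a were higher and Slamf7 lower, beside 12.7% and 6.63%. For Slamf6, Cd84, Ly9 and Sh2d1a, 4 of the 7 genes, the Tfh arrays were above all 6 cultured arrays, as for 60.5% of tested genes, and above the Th1, Th2 and Th17 arrays taken singly, as for 67.7%, 69.7% and 69% of tested genes. Tfh arrays wholly below were found against Th1 for Slamf7 and Cd48, beside 18.8% of tested genes, and against Th2 for Slamf7, beside 20%. The comparisons with Tfh share the Tfh arrays, so they are not independent of each other.

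**Figure D2:**
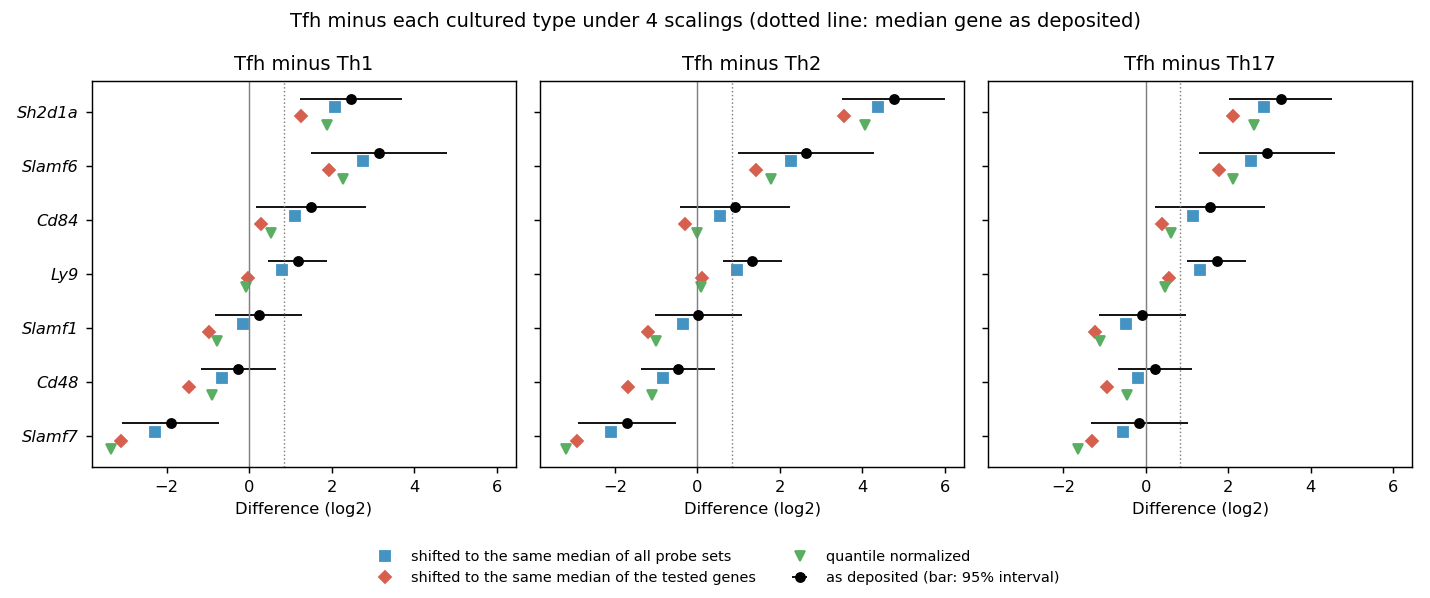
Difference of Tfh from Th1, from Th2 and from Th17 (log2), 1 panel each, for the 7 genes in 4 scalings of the arrays. Bars give the 95% interval of the limma fit for the deposited values only. Sh2d1a and Slamf6 stay above 0 and Slamf7 below 0 in every scaling. Ly9 and Cd84 lie between -0.30 and 0.61 after quantile normalization and after the shift to the tested genes' median.

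Among the cultured types no member was called in any pair by limma as deposited, where 1.24% of tested genes were called between Th1 and Th2, 0.143% between Th1 and Th17 and 0.671% between Th2 and Th17. At an unadjusted p under 0.05 there were 1, 1 and 2 members in these pairs, all of them Sh2d1a or Slamf7. For Sh2d1a both Th1 arrays were above both Th2 arrays, with a mean difference of 2.28 ± 0.50 (adjusted p = 0.115), and both Th2 arrays were below both Th17 arrays, with Th2 minus Th17 at -1.48 ± 0.50 (adjusted p = 0.283). Without Th1 replicate 1 the first became a call (3.09, adjusted p = 0.0110), and the second became one without Th1 replicate 1 (adjusted p = 0.0462) or Th1 replicate 2 (adjusted p = 0.0473). For Slamf7 the differences were 1.76 ± 0.48 between Th1 and Th17 (adjusted p = 0.319) and 1.56 ± 0.48 between Th2 and Th17 (adjusted p = 0.244), with no overlap of arrays in either pair. Genes whose first group lay wholly above the second made up 25% of tested genes between Th1 and Th2, 16.9% between Th1 and Th17 and 21.7% between Th2 and Th17, and 22.7% lay wholly below in the last pair. Cd84 also lay wholly below between Th1 and Th2 (18.4% of tested genes) and Cd48 wholly above between Th1 and Th17. In order of mean level, Sh2d1a ran Tfh, Th1, Th17, Th2, and the arrays of the neighbours Th1 and Th17 overlapped. For Slamf7 the order was Th1, Th2, Th17, Tfh, with overlap between Th1 and Th2 and between Th17 and Tfh. For Slamf6 the 3 cultured types overlapped throughout.

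The spread between arrays of a group was itself uneven. In Tfh the 2 arrays differed by 0.01 to 0.16 over the 7 genes. In Th1 the arrays were 1.42 apart for Slamf6 and 1.62 for Sh2d1a, against 0.0020 for Cd84 and a median of 0.30 over all tested genes. Th17 replicate 1 was lower than Th17 replicate 2 for all 7 genes, by 0.46 (Cd48 and Sh2d1a) to 1.78 (Cd84), where the median tested gene differed by 0.31 in size. In Th2 the largest gap was 1.10, for Cd48. Over the 6 cultured arrays Pearson's r was 0.84 between Slamf1 and Slamf6, 0.79 between Slamf7 and Ly9 and 0.77 between Slamf6 and Cd84, but -0.28 to 0.27 between Sh2d1a and each receptor. These values describe 6 arrays in 3 groups that share the culture system.

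The other probe sets of 3 receptors were fitted the same way among all probe sets of 1 symbol. For Slamf6 both were called higher in Tfh in each comparison: 1420659_at read 11.84 and 11.94 in Tfh and 6.43 to 10.02 in cultured arrays, and 1457773_at read 9.37 and 9.48 against 4.84 to 5.83. Their differences from the mean of the cultured types were 4.02 ± 0.94 (adjusted p = 0.00956) and 4.10 ± 0.29 (adjusted p = 7.29e-05), larger than the 2.91 of the main probe set 1425086_a_at. For Cd84 the probe set 1446505_at was called against each type, although the main probe set 1422875_at was called only against Th17 and the mean. It read 7.49 and 7.70 in Tfh, 2.44 and 3.27 in Th1, 3.27 and 2.89 in Th2, and 2.48 and 5.47 in Th17, with adjusted p = 0.00295 against the mean. Of its 6 cultured values 3 lay under the filter threshold of 3.13 and all but that of Th17 replicate 2 were no higher than 3.27, so no size is given for the difference. The additional Slamf1 probe sets, 1425569_a_at and 1425571_at, were not called, with differences from the mean of -0.63 ± 0.42 and -0.95 ± 0.42 against 0.06 for 1425570_at. The 3 Slamf1 probe sets thus disagreed in sign against the mean, although the SE of 1425570_at was 0.35. For 1425571_at both Tfh arrays (9.04 and 8.97) were below all 6 cultured arrays (9.09 to 10.83). By their main probe sets 13.8% of tested genes had the Tfh arrays below all cultured arrays. Levels of different probe sets are not compared with each other.

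**Figure D3:**
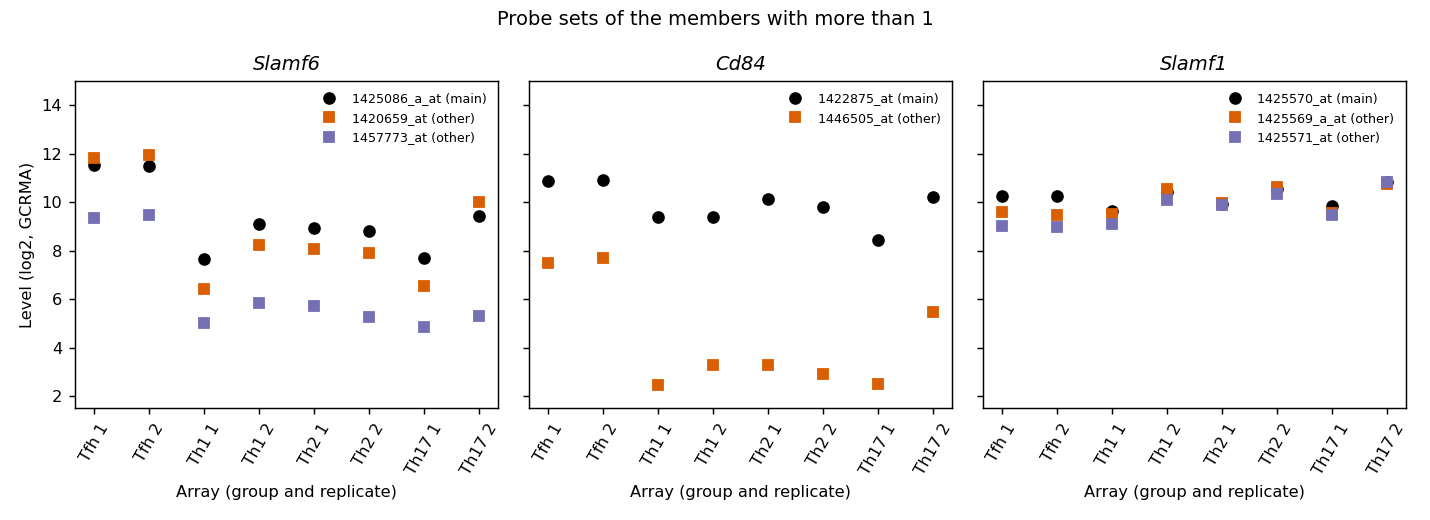
Level on each array (log2, GCRMA) of every probe set of Slamf6, Cd84 and Slamf1, with circles for the main probe set and squares for the others. All Slamf6 and Cd84 probe sets have the Tfh arrays above the cultured arrays, and the Slamf1 probe sets do not.

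The 6 receptor genes lie in 1 cluster on chromosome 1, in the order Ly9, Slamf7, Cd48, Slamf1, Cd84 and Slamf6 in the RefSeq annotation of GRCm38.p6, with Cd244a on the side of Ly9 and Vangl2 on the side of Slamf6. Sh2d1a lies on the X chromosome. Genes called in opposite directions as deposited, Slamf7 and Ly9, are therefore neighbours in this order. The promoter windows of Slamf6, Cd84 and Slamf7 are shown because these receptors of 1 cluster were called in different directions against the cultured mean as deposited. Slamf6 and Cd84 were called higher in Tfh and Slamf7 lower, but the Cd84 call was lost in each of the other scalings. RefSeq windows of 300 bases, 250 before and 50 from the start site, were matched for 5 of the 7 genes, and 3 are printed 5′ to 3′ on the gene's strand. Windows and motifs were chosen after the values and the windows had been seen. Capitals mark matches on either strand to AP-1 (TGANTCA), STAT (TTCNNNGAA), TCF/LEF (CTTTGA), RUNX (TGTGGT) or ETS (GGAAG), and no matches overlap.
Slamf6, chr1:171917212-171917511, plus strand: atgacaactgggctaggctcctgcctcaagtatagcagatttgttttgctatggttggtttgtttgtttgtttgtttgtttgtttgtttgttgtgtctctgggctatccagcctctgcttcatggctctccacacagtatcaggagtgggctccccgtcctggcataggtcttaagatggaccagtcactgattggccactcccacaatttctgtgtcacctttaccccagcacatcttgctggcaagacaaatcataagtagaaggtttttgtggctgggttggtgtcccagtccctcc
Cd84, chr1:171839447-171839746, plus strand: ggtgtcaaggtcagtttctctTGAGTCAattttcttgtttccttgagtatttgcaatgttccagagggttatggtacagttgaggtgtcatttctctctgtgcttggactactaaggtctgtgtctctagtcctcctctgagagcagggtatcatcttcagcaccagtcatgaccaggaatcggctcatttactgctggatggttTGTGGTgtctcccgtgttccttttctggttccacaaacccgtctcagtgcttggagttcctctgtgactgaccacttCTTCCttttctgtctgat
Slamf7, chr1:171648950-171649249, minus strand: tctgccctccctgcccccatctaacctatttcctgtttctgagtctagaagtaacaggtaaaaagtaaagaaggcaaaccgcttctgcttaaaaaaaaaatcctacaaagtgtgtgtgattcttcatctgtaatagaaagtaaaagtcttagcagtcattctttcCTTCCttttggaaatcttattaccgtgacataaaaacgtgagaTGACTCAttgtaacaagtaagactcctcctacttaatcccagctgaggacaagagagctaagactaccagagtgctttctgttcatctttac
The Slamf6 window held no match to any of the 5 motifs. The Cd84 window held AP-1 at -229, RUNX at -45 and ETS at 33 from the start site, and the Slamf7 window held ETS at -85 and AP-1 at -42. Of 32851 windows of this length, 7.81% held the AP-1 letters, 8.30% STAT, 16% TCF/LEF, 16.8% RUNX and 71.4% ETS. A match or its absence in these windows describes the letters only.

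The genes that carry the SLAM signal inside the cell were followed as a list of 18, of which 15 had their own probe set and were tested. Set against the cultured mean, 11 were called higher and 0 lower in Tfh (limma; 13 higher and 0 lower at an unadjusted p under 0.05). Their median difference was 1.54, beside 0.84 over all tested genes, and 3 (Fyn, Csk and Rasa1) held in all 4 scalings. Of all tested genes 43.7% were called higher and 6.66% lower in this comparison, and 12.7% higher in all 4 scalings. Fyn, the kinase that SAP recruits, read 13.83 and 13.74 in Tfh and 10.01 to 11.06 in cultured arrays, a difference of 3.20 ± 0.24 (adjusted p = 0.000111). Csk, a kinase that restrains Fyn and Lck, was higher by 2.48 ± 0.17. The adaptor Bcl10 was higher by 1.75 ± 0.14, and Inpp5d, which encodes the inhibitory phosphatase SHIP-1, by 2.13 ± 0.18. After quantile normalization the difference was 0.89 for Bcl10 and 1.00 for Inpp5d, against 2.73 for Fyn and 1.58 for Csk. Among the cultured pairs none of the 15 was called, with 5 between Th1 and Th2, 0 between Th1 and Th17 and 5 between Th2 and Th17 at an unadjusted p under 0.05. The smallest adjusted p there belonged to the adaptor Dok2, 1.29 higher in Th2 than in Th17 (adjusted p = 0.139), and to Ptpn6, which encodes the phosphatase SHP-1, 1.70 higher in Th1 than in Th2 (adjusted p = 0.174). The other 3 listed genes were not analysed here.

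Of 6 relatives and ligands of the family, 4 had their own probe set and 2 were tested. Cd2, the T cell receptor for CD48 in the mouse, read 13.52 and 13.47 in Tfh and 13.05 to 13.56 in cultured arrays, with a difference of 0.12 ± 0.13 from the mean (adjusted p = 0.429). Cd244a, another receptor for CD48, known on NK cells, read 2.59 and 2.61 in Tfh, 4.53 and 4.41 in Th1, 6.99 and 4.23 in Th2, and 3.48 and 2.92 in Th17. It was called lower in Tfh than in Th2 in all 4 scalings (adjusted p = 0.0209), but both Tfh values lie under the threshold of 3.13, so no size is given. Its highest value stood on Th2 replicate 1, the array with the highest platelet and mast cell marker levels. Slamf8 and Slamf9 were under the threshold on all but 1 array or on all arrays and were not tested, and Sh2d1b1 and Sh2d1b2 were not analysed here.

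Neighbours of the receptor cluster on chromosome 1 served as a comparison. Of 12 listed genes 8 were tested, and all 8 were called higher in Tfh in the comparison with the cultured mean, with 0 lower (limma; also 8 and 0 at an unadjusted p under 0.05). Their median difference was 1.56, beside 0.84 over all tested genes and 1.32 over the 7 SLAM genes, and 43.7% of tested genes were called higher. Usf1, a transcription factor gene, was higher by 3.12 ± 0.14 (adjusted p = 1.82e-05), and by 1.53 after quantile normalization. Vangl2, a planar polarity gene, was also called, with 3.74 and 3.54 in Tfh and 2.33 to 2.42 in cultured arrays. The cultured values all lie under the threshold of 3.13, so no size is given for it. Usf1 and Ncstn, 2 of the 8, held in all 4 scalings, beside 12.7% of tested genes.

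Genes whose products act beside SLAM and SAP in germinal centre and NKT cell biology made a list of 9, of which 8 were tested. In the comparison with the cultured mean 4 were called higher, all in 4 scalings, and 0 lower (limma; 5 higher and 0 lower at an unadjusted p under 0.05), beside 43.7% of tested genes called higher and 12.7% in all 4 scalings. They were Cxcr5 (5.41 ± 0.78), the repressor Bcl6 (4.30 ± 0.71), Cd1d1, which presents lipids to NKT cells (3.12 ± 0.44), and the inhibitory receptor Pdcd1 (2.92 ± 0.35). Cxcr5 was the marker used to sort the Tfh cells, so its difference is no independent result. Levels of other cells' markers, given above, also differed between these arrays, and their part in these 4 differences, that of Cd1d1 included, was not tested. The costimulator Icos (2.14 ± 0.84, adjusted p = 0.0604), the cytokines Il4 (-1.05 ± 1.20, adjusted p = 0.458) and Il21 (-1.41 ± 0.73, adjusted p = 0.131) and the B cell help ligand Cd40lg (0.31 ± 0.40, adjusted p = 0.508) were not called against the cultured mean. Il4 was called lower in Tfh than in Th2 in all 4 scalings (-7.02, adjusted p = 0.00720). After quantile normalization Il21 (-2.31, adjusted p = 0.0318) and Cd40lg (-1.26, adjusted p = 0.0325) were called lower than the cultured mean. Zbtb16 was not tested, being under the threshold on all arrays.

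The genes whose pattern was most like each member were found by Pearson's r over the 8 arrays among 10688 tested genes, as a description. The arrays share their group and, for Tfh, a different distribution of values, so r is high for many genes: 371 exceeded 0.95 with Slamf6, 175 with Ly9, 132 with Sh2d1a, 11 with Cd84, 1 with Cd48 and 0 with Slamf1 or Slamf7. Nearest to Slamf6 were Upf2 (r = 0.9957), Bcl6 (0.9953) and Zfp160 (0.9942). Bcl6 read 11.99 and 11.91 in Tfh, 6.33 and 8.15 in Th1, 8.54 and 7.80 in Th2, and 6.46 and 8.62 in Th17, so it was low on the same cultured arrays as Slamf6, Th1 replicate 1 and Th17 replicate 1. Over the 6 cultured arrays alone r between them was 0.9747. Nearest to Sh2d1a were Ncaph2 (0.9872), Bcl7a (0.9845) and Tubgcp5 (0.9842), to Ly9 Nudt6 (0.9970), Cntrob (0.9931) and Hint3 (0.9895), and to Cd84 Casp4 (0.9830), Grin3b (0.9754) and Bach1 (0.9653). Slamf7 was nearest to Naxd (0.9299), Rpe (0.9134) and Myh3 (0.9071), Cd48 to Srxn1 (0.9612), Iqgap2 (0.8976) and Mylpf (0.8968), and Slamf1 to Dcun1d2 (0.8892), Zfp982 (0.8879) and Rwdd3 (0.8854).

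**Figure D4:**
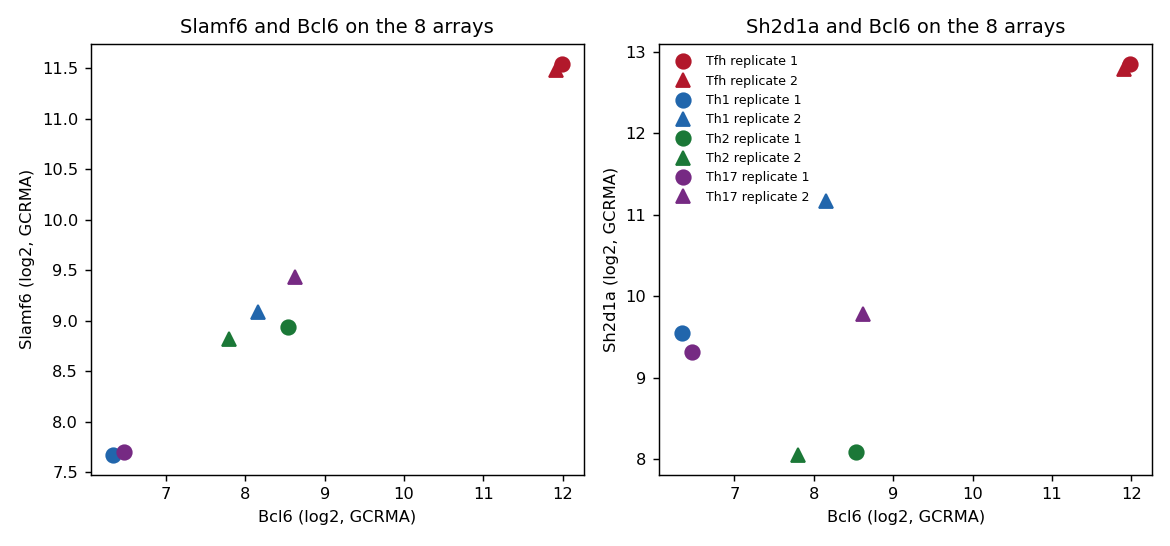
Levels of Slamf6 (left panel) and Sh2d1a (right panel) against that of Bcl6 (all log2, GCRMA), 1 point for each of the 8 arrays, coloured by group. The Tfh arrays lie at the upper right of both panels. For Slamf6 the 6 cultured arrays lie along a line below them with Th1 replicate 1 and Th17 replicate 1 lowest on both axes. For Sh2d1a the Th2 arrays are the lowest.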

How the data were processed

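Per the submitters' processing notes, the authors summarized the arrays with GCRMA, and the values they deposited are log2 levels. The GCRMA version, and which arrays were normalized together, are not given in the sources used here. Probe sets were named through the platform annotation and RefSeq names of GRCm38.p6: 34945 had 1 gene symbol, 932 several and 9160 none in these tables, and 64 were controls. For each gene the probe set with the highest mean was kept. A gene was tested if at least 2 arrays exceeded the 50th percentile of the whole table (3.13).

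Differences were fitted to the deposited values using limma 3.58.1 (R 4.3.3): all 8 arrays entered, each group had its own coefficient, and eBayes used a mean-level trend (4 residual and 1.78 prior degrees of freedom). Tests were two-sided, SEs come from that fit, and 7 comparisons were made. Calls needed a Benjamini-Hochberg adjusted p under 0.05 and a difference of at least 1. The fit was tested on simulated data. The number of arrays limits the precision. Members, gene lists and tests were chosen with earlier results of these data known. All members were named. From the signalling list the 4 genes with the smallest adjusted p against the mean and 2 over the cultured pairs were named, from the neighbours 2 each way, from the partners 4, and by likeness 3 per member. Rasa1 and Ncstn, named as holding in all 4 scalings, and Tbx21, Gata3, Cd8a, Icos, Il4, Il21 and Cd40lg were named after their values were seen. So were the plasma cell markers and the B cell markers other than Pax5. Alternatives covered scaling, filters, probe set choice, variance model, arrays left out, pairing and fewer arrays. The protein motifs of the receptors were not analysed here.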

Additional observations from a re-analysis of the deposited data

How the results depend on the processing

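Of the alternatives to the deposited scaling, the median shift over all probe sets gave 3, 3, 3 and 4 called members against Th1, Th2, Th17 and their mean, beside 4, 4, 4 and 5 as deposited. Quantile normalization gave 3 in each. The shift to the tested genes' median, chosen after seeing the data, gave 3, 3, 1 and 5. Those 5 were Sh2d1a and Slamf6 as higher and Slamf1, Slamf7 and Cd48 as lower, against 4 higher and 1 lower as deposited. Of all tested genes, 32.7% were called higher and 11.3% lower than the mean in the median shift over all probe sets. The shares were 15.8% and 22.3% after quantile normalization and 14.8% and 28.9% in the tested genes' shift, against 43.7% and 6.66% as deposited. Averaging the Tfh arrays as 1 sample gave 2, 2, 2 and 3. Leaving out 1 array gave 2 to 5, 1 to 4, 2 to 4 and 3 to 5, and in the cultured pairs 0 to 1 for Th1 against Th2 and for Th2 against Th17. The replicate block gave 4, 4, 3 and 5. Same-numbered arrays did not deviate together in all pairs of groups (r of -0.0018 to 0.268), so the numbers were not taken to pair the samples. Other filters, averaged or separate probe sets, other variance models, the adjusted p alone and fits on only the groups compared gave 3 to 5. Only the 6 cultured arrays, also chosen after seeing the data, gave 0 in each cultured pair.

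Directions turned mostly where no call stood, and the cause was not tested. For Slamf1 the median shift, quantile normalization, the shift to the tested genes' median and the mean of its probe sets gave -0.16, -0.79, -0.98 and -0.28 against Th1, -0.36, -1.01, -1.20 and -0.62 against Th2, and -0.33, -0.96, -1.14 and -0.51 against the mean. For Cd48 against Th17 the same 3 scalings gave -0.18, -0.46 and -0.94. Quantile normalization and the shift to the tested genes' median turned the called Ly9 difference from Th1 (-0.077 and -0.029) and the uncalled Cd84 difference from Th2 (-0.023 and -0.30). The mean of probe sets gave -0.53 for Cd84 in Th1 against Th17, -0.13 for Cd84 in Th2 against Th17 and 0.0032 for Slamf1 in Th2 against Th17.

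With 1 array left out, differences of Tfh from Th1, Th2, Th17 and the mean ran from -0.18 to 0.64, -0.30 to 0.33, -0.56 to 0.40 and -0.10 to 0.22 for Slamf1. For Cd48 they ran from -1.02 to 0.081 against Th2, -0.011 to 0.45 against Th17 and -0.35 to 0.013 against the mean. For Slamf7 against Th17 they ran from -0.81 to 0.51. In Th1 against Th2 the ranges were -0.62 to 0.19 for Slamf1, -1.21 to 0.21 for Slamf6, -0.21 to 0.60 for Slamf7, -0.0066 to 0.31 for Ly9 and -0.76 to 0.34 for Cd48. In Th1 against Th17 they were -0.79 to 0.17 for Slamf1, -1.05 to 0.67 for Slamf6, -0.83 to 0.95 for Cd84 and -0.0094 to 1.61 for Sh2d1a. In Th2 against Th17 they were -0.58 to 0.38 for Slamf1, -0.55 to 1.17 for Slamf6, -0.25 to 1.53 for Cd84 and -0.015 to 0.79 for Ly9. Cd84 was called in the last comparison without Th17 replicate 2 (1.53, adjusted p = 0.0447).

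Of the Tfh calls, Sh2d1a kept all 4 comparisons and Slamf6 those with Th1 and the mean under every array left out, as did Ly9 those with Th17 and the mean. The number of arrays limits the precision, and values near the threshold of 3.13 carry little signal over background.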
